A study of Mus musculus with 24 samples.

Results

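The meiotic germ cell genes examined here are 10 genes of the male germ line, Sycp1, Sycp3, Hspa2, Clgn, Ldhc, Pgk2, Ddx4, Dazl, Piwil1 and Spo11, taken from the 54232 genes of a count table of mouse adipose tissue. They were proposed by name after a list of testis germ cell genes had been summed in these same libraries and had stood high in several animals with renal failure, chiefly PNx replicates 1, 2 and 3. Their levels in that group are therefore given as a description. RNA came from visceral fat of 24 male C57Bl6 mice with 6 mice in each of 4 groups, aged 10 weeks by the series text, although the methods of the study give that age as the lower end of a range at purchase. Control mice had a sham operation and a lentivirus for green fluorescent protein (GFP), NaKtide mice had the sham operation and a lentivirus for the peptide NaKtide with GFP, PNx mice had partial nephrectomy and the GFP virus, and PNx+NaKtide mice had partial nephrectomy and the NaKtide virus. NaKtide was designed to block Src signalling through the Na,K-ATPase. In all 4 groups the virus was injected into the peritoneum and its transgene was driven by the adiponectin promoter, which is active in adipocytes.

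In meiosis, male germ cells pair their homologous chromosomes and exchange DNA between them before they become haploid. The synaptonemal complex is the protein scaffold that holds the paired chromosomes together, and meiotic recombination starts at DNA breaks made by Spo11. Germ cells also keep a set of RNA-binding proteins and piRNA factors that silence transposons, and in spermatocytes and spermatids they switch to their own forms of chaperones and of glycolytic enzymes. Adipose tissue is not a site of meiosis, and most of these genes are used as markers of the testis.

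The libraries were shallow, with 679250 to 2979505 counts each, and values are given as CPM, counts divided by the TMM-scaled library size on the usual CPM scale. Where a gene had no count, its level may still be up to that of 3 counts, between 0.739 and 5.91 CPM depending on the library, and this limit covers counting error only. Libraries were prepared with a stranded kit, and whether the counting used strand was not stated. Genes whose exons overlap a gene of the opposite strand (16.8% of the genes) held 79.9% of all counts, and mt-Nd6, encoded on the minus strand of the mitochondrial genome, had 67.6 times the counts per kb of the 12 plus-strand mitochondrial mRNA genes. If reads were assigned to the strand opposite to the transcripts, a printed level would be that of the other strand of the gene, and this holds for each gene named here, the somatic relatives and marker lists included. The part of strand in the levels of the meiotic genes was not tested. Of the 10 genes only Sycp3 shares exon bases with an opposite-strand gene, at 660 of its 1264 exon bases with Chpt1. Adipocyte markers varied between libraries as well, since the adiponectin gene Adipoq ranged from 2.50 to 345 CPM and the lipid droplet gene Plin1 from 0.76 to 398 CPM. In bulk tissue, a change in the number of cells of a type and a change in RNA per cell cannot be told apart.

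The promoters of the 10 genes were read because 9 of the genes, all but Sycp3, were high in the same libraries. The RefSeq promoter table of GRCm38.p6 matched 8 of the 10 genes, Clgn and Spo11 being the other two. Each window holds 300 bases, 250 before and 50 after the transcript start, and the 250 bases before the start are printed 5′ to 3′ on the strand of the gene. Capitals mark the palindromic E-box CACGTG, which reads the same on both strands. The first 4 promoters hold it and the promoter of Pgk2 is shown as one without it. They lie at chr3:102936101-102936350 on the minus strand (Sycp1), chr10:88459337-88459586 on the plus strand (Sycp3), chr13:112652311-112652560 on the minus strand (Ddx4), chr5:128735996-128736245 on the plus strand (Piwil1) and chr17:40208610-40208859 on the minus strand (Pgk2).
Sycp1: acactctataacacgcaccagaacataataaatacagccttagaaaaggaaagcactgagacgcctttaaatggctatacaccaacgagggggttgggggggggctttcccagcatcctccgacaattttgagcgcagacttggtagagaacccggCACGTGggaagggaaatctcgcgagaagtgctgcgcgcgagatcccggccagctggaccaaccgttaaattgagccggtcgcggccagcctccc
Sycp3: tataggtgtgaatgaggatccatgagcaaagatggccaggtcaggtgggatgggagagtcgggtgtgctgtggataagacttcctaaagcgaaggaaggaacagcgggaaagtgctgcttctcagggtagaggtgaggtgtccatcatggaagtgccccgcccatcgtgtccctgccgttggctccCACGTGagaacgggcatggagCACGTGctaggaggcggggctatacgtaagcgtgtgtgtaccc
Ddx4: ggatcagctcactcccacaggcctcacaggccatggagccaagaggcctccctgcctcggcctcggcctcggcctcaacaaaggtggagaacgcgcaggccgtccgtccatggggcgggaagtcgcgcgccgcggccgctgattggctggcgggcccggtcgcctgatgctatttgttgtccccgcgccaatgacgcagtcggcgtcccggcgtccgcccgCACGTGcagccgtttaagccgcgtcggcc
Piwil1: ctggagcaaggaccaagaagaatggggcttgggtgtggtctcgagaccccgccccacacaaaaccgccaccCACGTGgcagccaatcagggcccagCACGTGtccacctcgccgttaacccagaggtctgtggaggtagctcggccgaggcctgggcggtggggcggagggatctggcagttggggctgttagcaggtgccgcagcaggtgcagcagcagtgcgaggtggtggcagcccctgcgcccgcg
Pgk2: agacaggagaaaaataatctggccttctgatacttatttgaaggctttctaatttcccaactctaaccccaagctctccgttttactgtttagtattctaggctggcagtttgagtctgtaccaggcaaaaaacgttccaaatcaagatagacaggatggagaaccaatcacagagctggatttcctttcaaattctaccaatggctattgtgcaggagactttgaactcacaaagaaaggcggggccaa

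The E-box was found in 4 of the 8 matched genes, once each for Sycp1 and Ddx4 and at 2 positions each for Sycp3 and Piwil1, and in 7.15% of all 32851 promoters of the table. Without Sycp3 it was found in 3 of 7 matched genes. It began 94 bases before the start in Sycp1 and 29 bases before it in Ddx4. The sequence TAACNG was found in 4 of 8 against 23.3% of all promoters, and TGACG in 4 of 8 against 20.8%, both strands searched and any overlap allowed. The promoters differed widely in CpG content. Ddx4 held 38 CpG and Dazl 28, Sycp1 and Hspa2 held 21 each, Piwil1 18 and Sycp3 15, whereas Pgk2 held 4 and the 2 promoters listed for Ldhc held 9 and 3, against a median of 7 over all promoters. These matches describe the letters in the windows, and no binding or methylation was measured.

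Sycp1 (chromosome 3, 102818499 to 102936100, 34 exons after merging) encodes the transverse filament protein of the synaptonemal complex. Sycp1 ranged from 0 to 10.5 CPM in Control (median 2.96), from 0 to 9.46 CPM in NaKtide (median 0.605), from 0 to 39.4 CPM in PNx (median 17.2) and from 0 to 13.8 CPM in PNx+NaKtide (median 5.36). The 3 highest libraries were PNx replicates 1, 2 and 3, yet a PNx library also lay at 0, so the groups overlapped. Sycp3 (chromosome 10, 88459569 to 88473236), which encodes a protein of the lateral element, had counts in all 24 libraries and spanned 37.0 to 652 CPM. It is taken up separately below. Spo11 (chromosome 2, 172977700 to 172993576), the enzyme that makes the meiotic DNA breaks, was rare. It had 106 counts in all, a median of 1.05 CPM in Control, 1.98 in NaKtide, 3.71 in PNx and 1.41 in PNx+NaKtide, and a highest level of 5.67 CPM in PNx replicate 1.

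The RNA-binding germ cell genes were low and clustered in the same libraries. Ddx4 (chromosome 13, 112598333 to 112652475) encodes the germ cell RNA helicase also known as Vasa. Its median was 1.73 CPM in Control, 0.332 in NaKtide, 4.17 in PNx and 1.15 in PNx+NaKtide, with highest values of 4.64, 8.38, 28.8 and 5.02 CPM. Piwil1 (chromosome 5, 128702524 to 128755474), the piRNA-binding protein Miwi of spermatocytes and spermatids, had medians of 1.92, 1.21, 8.25 and 1.92 CPM in the same order of groups and highest values of 6.17, 17.5, 54.2 and 12.8 CPM. For both genes PNx replicates 3 and 1 came first and NaKtide replicate 3 next, ahead of PNx replicate 2. Dazl (chromosome 17, 50279395 to 50293636), a translational regulator of germ cells, was close to the limit of detection. It had 3 counts over the Control group, 0 over the NaKtide group, 27 over the PNx group and 2 over the PNx+NaKtide group, and only PNx replicates 1 (9 counts) and 3 (15 counts) exceeded 3 counts. With 5 counts outside PNx, Dazl passed the filter on low counts through the PNx group alone, and no fold is given for it where the NaKtide group is compared. All 10 genes passed the filter, the other 9 with 43 to 3266 counts outside PNx.

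Apart from Sycp3, the chaperones and enzymes had the highest mean levels per kb. Hspa2 (chromosome 12, 76404176 to 76406938), the heat shock protein of meiotic cells, was counted in 24 of 24 libraries. It ranged from 7.10 to 34.5 CPM in Control (median 23.8), from 2.42 to 54.5 CPM in NaKtide (median 10.5), from 11.8 to 133 CPM in PNx (median 47.7) and from 6.65 to 65.2 CPM in PNx+NaKtide (median 27.8). Clgn (chromosome 8, 83389867 to 83428552), which encodes the germ cell chaperone calmegin, ranged from 0 to 32.1 CPM in Control (median 13.8), from 0 to 46.8 CPM in NaKtide (median 3.14), from 0.594 to 123 CPM in PNx (median 35.1) and from 0 to 55.7 CPM in PNx+NaKtide (median 16.2). Each group held a library with Clgn at 0.594 CPM or less, whereas Hspa2 was at 2.42 CPM or more in every library. Ldhc (chromosome 7, 46861203 to 46878142), the lactate dehydrogenase subunit of the germ line, had medians of 13.9 CPM in Control, 1.98 in NaKtide, 26.6 in PNx and 15.6 in PNx+NaKtide, and its highest level was 113 CPM in PNx replicate 3. Pgk2 (chromosome 17, 40207015 to 40208640), the phosphoglycerate kinase made from a single-exon gene in spermatogenic cells, had medians of 3.36, 1.65, 10.5 and 1.81 CPM and reached 38.6 CPM in PNx replicate 3.

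**Figure D1:**
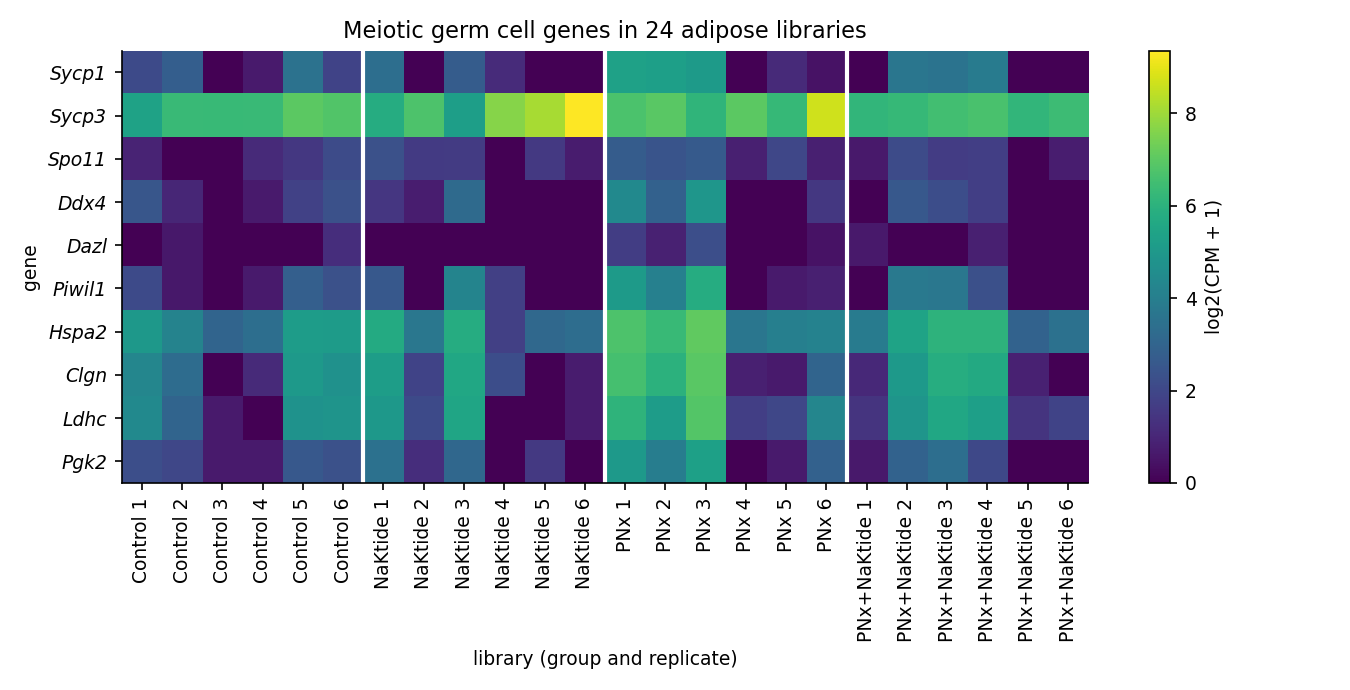
Level of each gene (rows) in each library (columns, by group and replicate) as log2(CPM + 1), from dark (0) to yellow, with white lines between groups. Apart from Sycp3, the genes were mostly brightest in PNx replicates 1, 2 and 3 and intermediate in some libraries of every other group, and Sycp3 was brightest in NaKtide replicate 6 (652 CPM) and PNx replicate 6 (412 CPM).

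Compared per kb of exon, mean levels over the 24 libraries were 107 CPM per kb for Sycp3, 13.6 for Ldhc, 13.2 for Hspa2, 6.28 for Clgn, 3.84 for Pgk2, 2.20 for Sycp1, 1.65 for Piwil1, 1.28 for Ddx4, 0.499 for Spo11 and 0.113 for Dazl. Ldhc and Hspa2, neighbours in this order, had means and SDs of 8.63 ± 7.97 and 8.37 ± 4.74 CPM per kb in Control (n = 6), a difference smaller than the spread. Piwil1 and Ddx4 were likewise closer to each other than their spread, at 0.555 ± 0.564 and 0.703 ± 0.633. PNx replicates 1, 2 and 3 held 51.9% (Spo11) to 81.3% (Dazl) of the counts of the 9 genes other than Sycp3, and 17.5% of those of Sycp3. They were the 3 highest libraries for Sycp1, Hspa2, Clgn, Pgk2 and Spo11, as they were for 4294 of the 26116 genes tested (16.4%), and nothing is read from this because these libraries entered the choice.

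The sum of the 9 genes without Sycp3 separated single libraries rather than groups. It was 534 CPM in PNx replicate 3, 401 in PNx replicate 1 and 256 in PNx replicate 2. Next came PNx+NaKtide replicate 3 at 205 CPM, NaKtide replicate 3 at 187, PNx+NaKtide replicate 4 at 179, NaKtide replicate 1 at 150 and PNx+NaKtide replicate 2 at 141. Control replicates 5, 6 and 1 followed at 118, 106 and 85.9 CPM, then PNx replicate 6 at 52.8 and Control replicate 2 at 44.0. The remaining 11 libraries, which came from all 4 groups, lay between 8.28 CPM (Control replicate 3) and 24.4 CPM (PNx replicate 5). The medians were 65.0 CPM in Control, 16.9 in NaKtide, 154 in PNx and 79.6 in PNx+NaKtide. The lowest and highest libraries of a group were 8.28 and 118 CPM in Control, 9.69 and 187 in NaKtide, 15.7 and 534 in PNx and 9.15 and 205 in PNx+NaKtide, so all 4 groups overlapped.

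**Figure D2:**
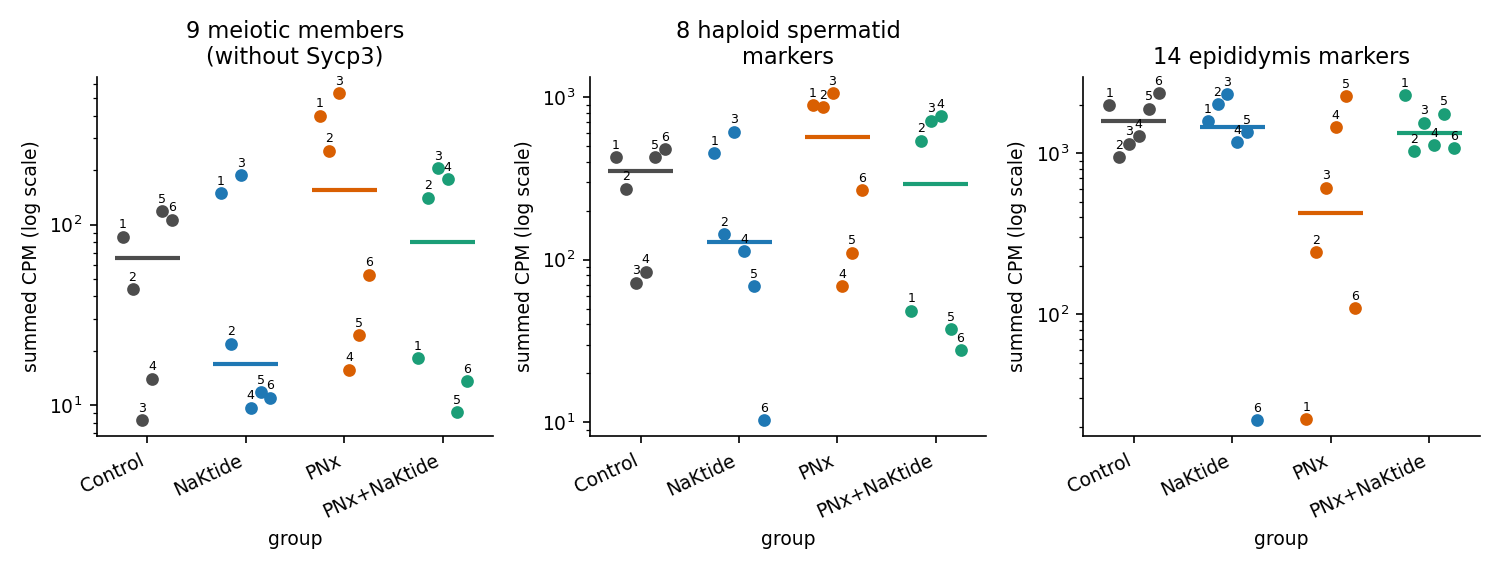
Summed CPM on a log scale, 1 point per library with its replicate number and a line at the group median, for the 9 meiotic genes without Sycp3, 8 haploid spermatid markers and 14 epididymis markers. PNx replicates 1, 2 and 3 were the highest libraries in the first 2 panels and lay at 22.2 to 609 CPM in the last panel, where the Control libraries lay between 946 and 2362 CPM.

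The make-up of the 9-gene sum differed between libraries, and the intervals given here cover counting error only. Hspa2 supplied 25% of the 9-gene counts in PNx replicate 3 (529 of 2116, Wilson 95% interval 23.2% to 26.9%) and 26.2% in PNx replicate 1. It supplied 85.7% in Control replicate 3 (12 of 14, interval 60.1% to 96.0%), 82.4% in NaKtide replicate 6 and 75.0% in PNx replicate 4. Hspa2 thus supplied more than all other genes together in 10 of the 11 libraries at 24.4 CPM or less, the exception being NaKtide replicate 4 with 2 of 8 counts. Ldhc and Clgn both had at least 20 counts in 11 libraries, and there the ratio of Ldhc to Clgn counts was 0.551 to 1.13, with a median of 0.85. The lowest ratio, in PNx replicate 2, had an interval of 0.424 to 0.717. All 9 genes were counted in 1 Control library, in none of the NaKtide libraries, in 4 PNx libraries and in 1 PNx+NaKtide library. Detection also depends on depth. Totals were 1538612 to 2366069 counts in Control, 679250 to 2053464 in NaKtide, 1619842 to 2979505 in PNx and 1281905 to 1907222 in PNx+NaKtide.

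The question put by the first contrast is what experimental renal failure changed in adipose tissue. With edgeR's quasi-likelihood test on all 24 libraries, 20 of 26116 genes tested (0.0766%) passed a Benjamini-Hochberg adjusted p under 0.1 for PNx against Control, and 0 of the 10 genes did. All 20 lay lower in PNx. All 10 meiotic genes lay higher in PNx, with a median log2 fold change of 1.86, and 1.76 over the 9 without Dazl, beside 0.36 over all genes tested. With DESeq2 size factors the median over all genes was 0.76 and with library totals 0.70, and the meiotic genes then lay 1.82 and 1.62 above it, against 1.5 here, with 10 of 10 higher under each scaling. The largest was 2.85 ± 1.27 (SE) for Piwil1, followed by 2.45 ± 1.01 for Pgk2, 2.28 ± 1.2 for Sycp1 and 2.19 ± 1.07 for Ddx4. The smallest was 0.81 ± 0.52 for Sycp3. These values repeat what the genes were chosen on and are given without a p. At an unadjusted p under 0.05 the count was 2 of 10, beside 25.4% of all genes, and with DESeq2 at the adjusted threshold it was 7 of 10, beside 29.7%. By direction, 26.3% of all genes were called higher by DESeq2. In edgeR with other scalings the count was 7 with DESeq2 size factors (33.3% of all genes, 30.5% higher) and 1 with library totals (15.7%, 13.5% higher). With the filterByExpr filter, under which 7 of the 10 were tested, it was 2 (17.9%, 14.5% higher). It was 2 without both replicates 6 of PNx and NaKtide (21.8%). Nothing is read from these counts, since the contrast entered the choice. The count also turned on single libraries, being 7 without PNx replicate 4 (33.2% of all genes) and 2 without PNx replicate 5 (23.2%). Without PNx replicates 1, 2 and 3 the median of the 9 genes still tested was -0.77.

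Addition of NaKtide to renal failure gave values of the opposite sign, in a contrast that shares the PNx libraries with the first. For PNx+NaKtide against PNx, 0 of 26116 genes (0%) passed edgeR's adjusted threshold and 12.7% had an unadjusted p below 0.05, as against 0 of the 10 genes, with 3 at that unadjusted p. DESeq2 called 1 of the 10 (Pgk2), beside 5.8% of all genes, and gave no adjusted p for 2 of the 10. Nothing is read from these counts either, since the PNx libraries entered the choice. All 10 lay lower in PNx+NaKtide, with a median log2 fold change of -1.38, and -1.13 without Dazl, beside -0.37 over all genes. Ddx4 was at -2.39 ± 1.10 (SE), Pgk2 at -2.23 ± 1.0 and Hspa2 at -0.84 ± 0.71. Without PNx replicates 1, 2 and 3 this median was 1.22. The interaction of nephrectomy and NaKtide, which includes the same PNx libraries, had a median of -1.79 over the 9 genes without Dazl beside -0.35 over all genes, and no gene passed edgeR's threshold (0%), 9.27% having an unadjusted p below 0.05. With the replicate number as a block, although it is not known whether the numbers pair samples, the interaction median over the same 9 genes was -0.42. In that fit 4 of the 9 lay higher.

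The contrasts without PNx libraries entered the choice less directly and are given with tests. The sums of all libraries were known at the choice, however, and PNx+NaKtide mice also had renal failure. These contrasts are therefore a description as well. NaKtide against Control asks what the peptide did in sham-operated animals. The median log2 fold change of the 9 genes without Dazl was 0.11, and 7 of them lay higher. Over all 10 it was 0.10, and its sign rested on single libraries, since it was -0.53 without NaKtide replicate 3, -0.31 without NaKtide replicate 1, -0.12 without Control replicate 3, -0.10 without Control replicate 4 and -0.93 with the replicate block. By edgeR no gene of 26116 (0%) passed the adjusted threshold and 3.95% had an unadjusted p under 0.05, Sycp3 being the single one of the 10 (1.36 ± 0.53, adjusted p = 1). Clgn was at 0.11 ± 1.25 and Ldhc at 0.02 ± 1.12, so their standard errors allow changes of more than 1 on the log2 scale in either direction. For PNx+NaKtide against NaKtide, which compares the operations under NaKtide, the median was 0.14 over the 9 genes without Dazl, 5 of them higher. Left out 1 at a time, PNx+NaKtide replicates 2 and 3 turned this 9-gene median to -0.45 and -0.35. NaKtide replicates 2, 5 and 6 turned it to -0.13, -0.05 and -0.14, and it stayed above 0 without any other library. Over all 10 genes the median was 0.33, but leaving out replicate 3 of PNx+NaKtide gave -0.14 and leaving out replicate 2 of that group gave -0.03. Here edgeR called 0 genes (0%) and 4.09% had an unadjusted p under 0.05. Sycp3 was again the only one of the 10 at that level, at -1.44 ± 0.53 (adjusted p = 1), and the 2 contrasts share the NaKtide libraries. Without NaKtide replicate 6, Sycp3 was at 0.64 ± 0.47 and -0.72 ± 0.47 in these contrasts and none of the 10 had an unadjusted p under 0.05. Sycp1 was at 0.96 ± 1.25 and Hspa2 at 0.52 ± 0.72. DESeq2 called 3 and 2 genes in these contrasts (0.0115% and 0.00766%) and none of the 10.

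**Figure D3:**
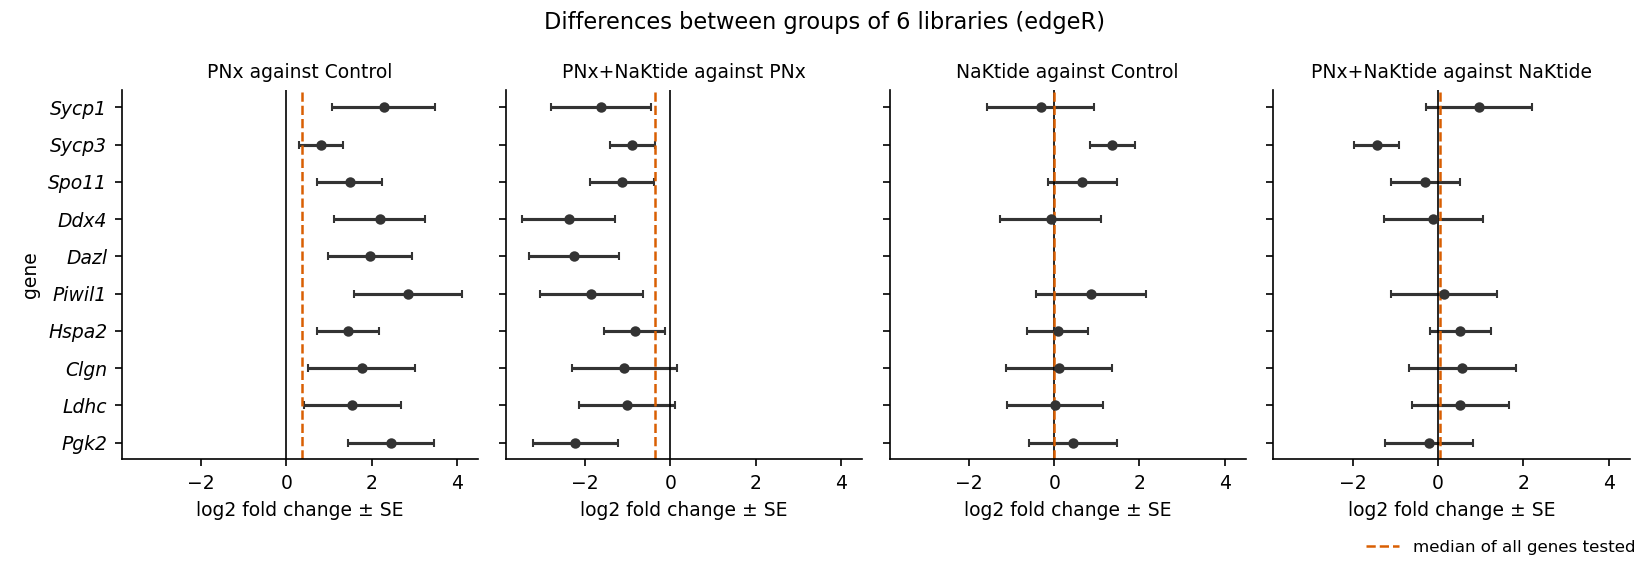
Log2 fold change with its SE (edgeR, 6 libraries per group) for each gene in 4 contrasts, with a dashed line at the median of all genes tested. All 10 genes lay to the right in PNx against Control and to the left in PNx+NaKtide against PNx, and their error bars in the other contrasts crossed 0 for every gene drawn except Sycp3. Dazl is left out where the NaKtide group, with 0 counts, is compared.

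As printed, Sycp3 followed a pattern of its own. Its 4 highest libraries were NaKtide replicate 6 at 652 CPM, PNx replicate 6 at 412, NaKtide replicate 5 at 282 and NaKtide replicate 4 at 201 CPM, and the other 9 genes summed there to 11, 52.8, 11.8 and 9.69 CPM. In PNx replicates 1, 2 and 3 it was at 102, 123 and 67.9 CPM, within the range of the other groups. Chpt1, the choline phosphotransferase gene whose exons overlap Sycp3 on the opposite strand, was at 468, 374 and 221 CPM in PNx replicates 1, 2 and 3, at 91.0 CPM in PNx replicate 6 and at 42.7 CPM in NaKtide replicate 6. In PNx+NaKtide replicates 2, 3 and 4 Chpt1 was at 43.5, 66.4 and 59.9 CPM, whereas in replicates 1, 5 and 6 it was at 6.09, 0.832 and 2.72 CPM. The 3 libraries highest in Chpt1 were thus those highest in the other 9 meiotic genes, and the 4 highest in Sycp3 were not. As a measure of likeness, the mean absolute difference between centred log2(CPM + 1) values over the 24 libraries was 2.07 between Sycp3 and the sum of the other 9 genes and 1.07 between Chpt1 and that sum. For single members against the other 8 it was 0.53 (Pgk2) to 1.45 (Dazl). If reads were assigned to the strand opposite to the transcripts, the levels printed for Sycp3 and Chpt1 would be those of the other strand. The part of strand in this pattern was not tested. 

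**Figure D4:**
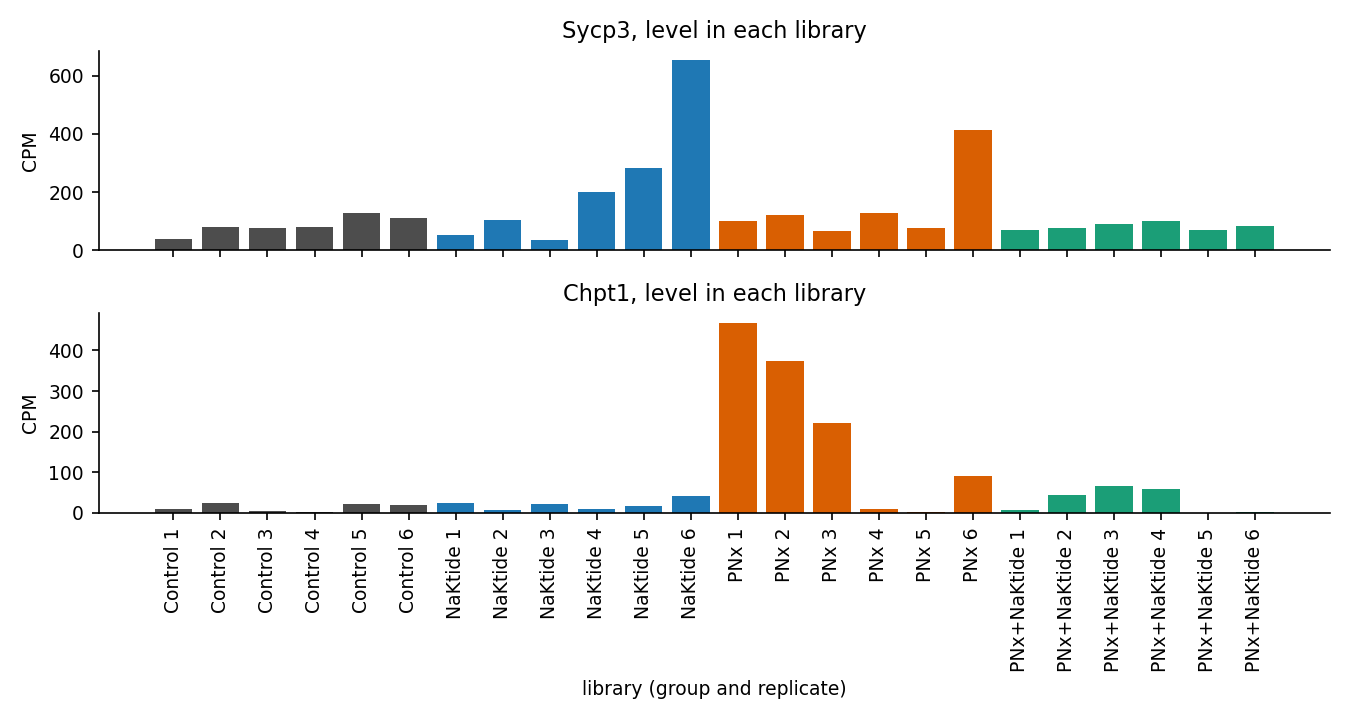
CPM of Sycp3 (top) and of its opposite-strand partner Chpt1 (bottom) in each library, with bars from 0 coloured by group. Sycp3 was highest in NaKtide replicate 6 (652 CPM) and Chpt1 in PNx replicate 1 (468 CPM).

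Germ cell forms were compared per kb with the somatic forms of the same proteins, within each library. Ldhc exceeded Ldha, the lactate dehydrogenase subunit of muscle and many other tissues, in 12 of 24 libraries, at 4 in Control, 2 in NaKtide, 3 in PNx and 3 in PNx+NaKtide. Its share of the Ldhc and Ldha level reached 78.6% in Control, 79.8% in NaKtide, 84.5% in PNx and 82.3% in PNx+NaKtide, and each group also held a library at 22.4% or less. Ldhc exceeded Ldhb, the heart form, in 10 libraries. Pgk2 exceeded the housekeeping Pgk1 in 9 libraries, of which NaKtide replicate 5 rests on 1 count of Pgk2 against 0 of Pgk1. Clgn exceeded calnexin (Canx) in 7, and Hspa2 exceeded the constitutive Hspa8 in 6 and the stress-inducible Hspa1b in 6. In PNx replicates 1, 2 and 3 the germ cell form exceeded the somatic form in all of these pairs. Canx stayed between 4.25 and 17.1 CPM per kb in all libraries. Hspa1a and Hspa1b are near-identical copies and their counts can be split between them. Among the somatic relatives, PNx against Control gave a log2 fold change of 1.67 ± 0.68 for Ldha, -0.20 ± 0.50 for Ldhb, 0.01 ± 0.59 for Pgk1, -0.09 ± 0.55 for Hspa8, -0.66 ± 0.37 for Hspa1a, -0.95 ± 0.38 for Hspa1b and -0.45 ± 0.33 for Canx. The helicase Ddx3x was at 1.03 ± 0.52, and the cohesin subunits Smc1a and Rad21 were at -0.13 ± 0.62 and 0.37 ± 0.42. The median of these 10 genes was -0.11 beside 0.36 over all genes, 4 of them lay higher, and 0 passed edgeR's adjusted threshold (0.0766% of all genes). Before adjustment 2 had a p under 0.05 (25.4% of all genes), and DESeq2 called 2 (29.7%).

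**Figure D5:**
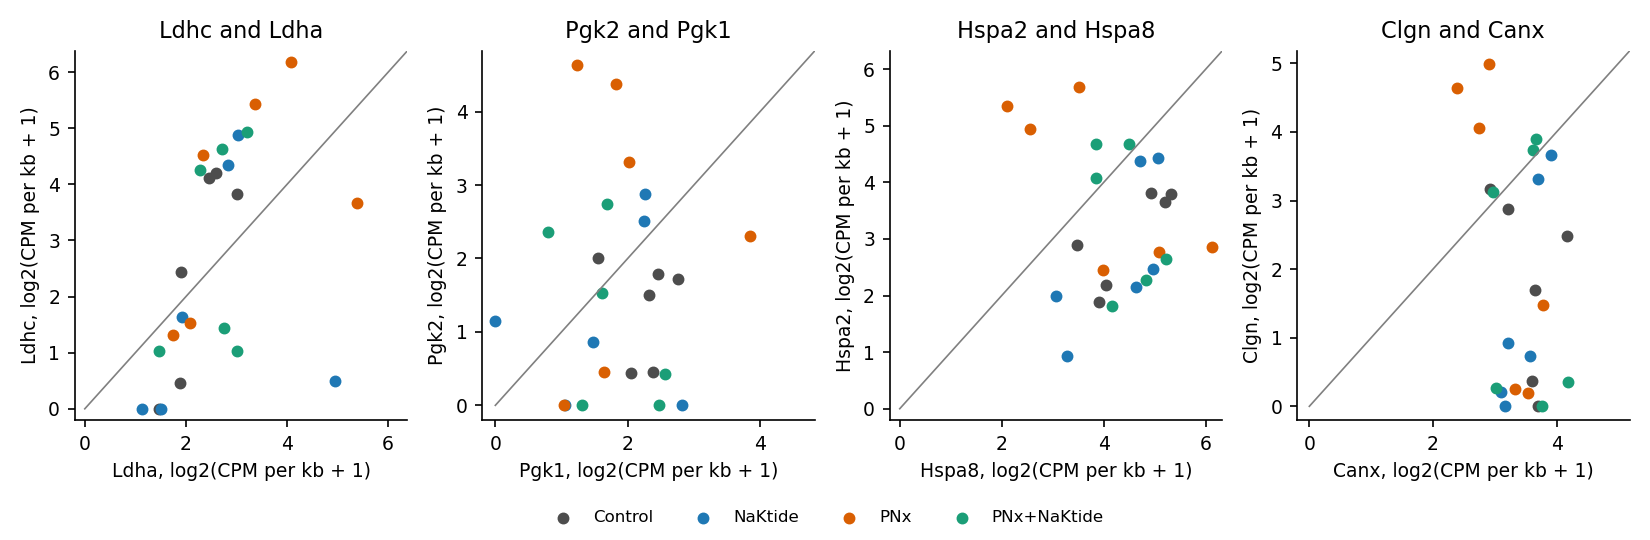
Level per kb, as log2(CPM per kb + 1), of 4 germ cell genes (vertical axis) against a somatic relative (horizontal axis), 1 point per library coloured by group, with a grey line of equal levels. Points above the line are libraries in which the germ cell gene was higher, 12 for Ldhc, 9 for Pgk2, 6 for Hspa2 and 7 for Clgn. For Pgk2, 1 of these libraries, NaKtide replicate 5, had 1 count against 0.

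Other genes of the same pathways were taken from lists chosen with earlier results of these data known. Counts of calls below are by edgeR at the adjusted threshold, which 0.0766% of all genes passed, followed by the count at an unadjusted p under 0.05 (25.4% of all genes) and by DESeq2 (29.7%). For PNx against Control DESeq2 gave no adjusted p for 2, 2, 0, 3 and 0 tested genes of the 5 lists, in the order in which they follow. Of 11 genes of the synaptonemal complex and the meiotic cohesin, 10 were tested. For PNx against Control their median log2 fold change was 1.99 beside 0.36 over all genes and 8 lay higher. By edgeR 0 were called and 5 had an unadjusted p under 0.05, and DESeq2 called 6. Sycp2, a lateral element protein, was at 2.69 ± 1.16 and its median level was 2.48 CPM in Control and 16.7 CPM in PNx. Syce2, a central element protein and the most counted gene of the list, was at -0.31 ± 0.37 with medians of 37.0 and 22.8 CPM. Rad21l, a meiotic cohesin subunit named here for its value, had 0 counts in all libraries.

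Of 15 meiotic recombination genes 11 were tested, 6 lay higher in PNx and their median was 0.49, with 0 called by edgeR, 1 at the unadjusted p and 1 called by DESeq2. The most counted were Rec114 (-0.09 ± 0.34), which Spo11 needs to make breaks, and Mcmdc2 (-0.00 ± 0.48), and both overlap exons of another gene on the opposite strand. Spata22 and Mei4, also named for their values, had 0 counts. Among 17 piRNA pathway genes 16 were tested, 15 lay higher and the median was 1.93, with 0 called by edgeR, 9 at the unadjusted p and 13 called by DESeq2. The 12 tested genes without an opposite-strand partner had a median of 2.06, and all 12 lay higher. The most counted genes of this list were Tdrkh, with 90110 counts and 0.84 ± 0.85, and Piwil4, with 7425 counts and -0.78 ± 1.0. Tdrkh overlaps exons of Oaz3, the spermatid antizyme gene, on the opposite strand.

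Germ cell regulators, a mixed list, gave a median of 2.01 over 14 of 15 genes tested, with 13 higher. The counts were 0 by edgeR, 6 at the unadjusted p and 11 by DESeq2, 10 of those 11 higher. Among them Meioc, which maintains the meiotic programme, was at 1.61 ± 1.08 with medians of 6.49 CPM in Control and 18.3 CPM in PNx, and the transcription factor Tcfl5, which overlaps Col9a3 on the other strand, was at 2.26 ± 1.12. Of the 10 spermatid energy enzymes and chaperones, 7 lay higher and the median was 1.08, with 0 called by edgeR, 0 at the unadjusted p and 5 called by DESeq2. Nothing is read from the counts of these lists for PNx against Control. The most counted of them, the sperm glyceraldehyde-3-phosphate dehydrogenase Gapdhs (-0.34 ± 0.25) and Hspa1l (-0.28 ± 0.30), overlap opposite-strand genes, and their medians were 181 and 143 CPM in Control and 146 and 104 CPM in PNx. Without PNx libraries, for NaKtide against Control, the medians of the 5 lists were 0.16, -0.36, 0.29, -0.01 and -0.23 in the order given, beside 0 over all genes, with 0 genes called in each by edgeR (0%) or DESeq2 (0.0115%) and 1 gene, of the last list, at an unadjusted p under 0.05 (3.95% of all genes).

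Markers of later germ cells and of neighbouring organs were summed per library, using genes without an opposite-strand partner. The 8 haploid spermatid markers, which include the protamines Prm1 and Prm2 of sperm chromatin, spanned 72.2 to 480 CPM in Control and 10.3 to 614 CPM in NaKtide. Their span was 69.1 to 1058 CPM in PNx and 27.8 to 764 CPM in PNx+NaKtide, and the highest libraries were PNx replicates 3, 1 and 2. Median levels of Prm2 were 181 CPM in Control, 88.6 in NaKtide, 269 in PNx and 151 in PNx+NaKtide, and those of Prm1 were 61.4, 14.5, 95.1 and 54.4 CPM. The haploid sum exceeded the 9-gene meiotic sum in 23 of 24 libraries. The ratio of the haploid to the meiotic sum was 1.98, 2.23 and 3.38 in PNx replicates 3, 1 and 2, had a median of 5.51 in Control (3.63 to 8.71), 4.56 in NaKtide (0.941 to 11.6), 3.89 in PNx (1.98 to 5.09) and 3.66 in PNx+NaKtide (2.05 to 4.27), and the groups overlapped. It was under 1 in NaKtide replicate 6, where 16 haploid counts stood beside 17 meiotic ones.

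The 14 epididymis markers found in the table, which include the lipocalins Lcn5 and Lcn8, were distributed differently. They summed to 946 to 2362 CPM in Control and 1033 to 2297 CPM in PNx+NaKtide. In PNx replicates 1, 2 and 3 they were at 22.2, 242 and 609 CPM, in PNx replicate 6 at 109 CPM and in NaKtide replicate 6 at 22 CPM, and PNx replicates 4 and 5 lay at 1454 and 2264 CPM. Median levels of Lcn5 were 164 CPM in Control and 54.3 in PNx, and those of Lcn8 were 156 and 44.4 CPM. Libraries high in meiotic genes were thus found with few epididymis transcripts in PNx and with many in the other groups, since PNx+NaKtide replicate 3 and NaKtide replicate 3 had 1548 and 2332 CPM. All 14 epididymis markers lay lower in PNx than in Control, with a median log2 fold change of -1.0. None was called by edgeR (0.0766% of all genes) or DESeq2 (29.7%), and 0 had an unadjusted p under 0.05.

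Markers of the somatic cells of the testis were summed in the same way. The Sertoli cell list, 8 genes without an opposite-strand partner, summed to between 10.2 and 38.7 CPM over all libraries, and its defining markers Amh and Rhox5 had 10 and 22 counts in all. The Leydig cell list of 7 genes ranged from 39.4 to 186 CPM, with 38 counts for Insl3 and 251 for Cyp17a1. In PNx replicates 1, 2 and 3 the Leydig sum was 77.4, 88.8 and 73.7 CPM, inside the range of the other libraries. Adipocyte markers (12 genes) summed to 196 to 212 CPM in PNx replicates 1, 2 and 3 and to 6246 CPM in PNx replicate 6, and Control libraries lay between 243 and 753 CPM. All 14 genes of the adipocyte list lay higher in PNx than in Control in the fit, with a median log2 fold change of 1.68. The median library of PNx, at 222 CPM, was nevertheless below that of Control, at 468 CPM. By edgeR 0 of the 14 were called (0.0766% of all genes) and 4 had an unadjusted p under 0.05 (25.4%). DESeq2 called 3 (29.7% of all genes) and gave no adjusted p for 8 of the 14. Skeletal muscle genes summed to 3840 CPM in NaKtide replicate 6, whereas no other library exceeded 30.3 CPM. There the muscle actin Acta1 was at 323 CPM and the muscle creatine kinase Ckm at 447 CPM, against at most 1.34 and 19.5 CPM in Control. Macrophage and endothelial lists were highest in PNx replicate 6, at 180 and 528 CPM, with the endothelial markers Pecam1 and Cdh5 at 112 and 123 CPM and the macrophage marker Cd68 at 7.17 CPM. Adgre1, the other defining macrophage marker, had 13 counts in all. The part of tissue sampled with the fat in the levels of the meiotic genes was not tested.

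The 9 genes were also set beside receptor and keratin-associated gene families. Olfactory receptors (1115 genes), the largest of them, averaged 0.0174 to 0.251 CPM per kb of exon over the libraries. The 9 meiotic genes averaged 0.290 to 18.7 CPM per kb, with group medians of 2.28 in Control, 0.590 in NaKtide, 5.41 in PNx and 2.79 in PNx+NaKtide. Of the others, vomeronasal (193 and 113 genes), taste (35 genes) and keratin-associated (56 genes) families stayed at 0.134 CPM per kb or less. Olfactory receptors were themselves highest in PNx replicates 1, 2 and 3, at 0.200, 0.251 and 0.158 CPM per kb, and at most 0.108 in the other libraries. The lowest library of the meiotic genes, Control replicate 3, lay above every library of each family, although 12 of its 14 counts were of Hspa2. The other genes of the sum had 2 counts there, and their level alone was not set beside the families.

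Among 5730 genes with a mean of at least 5 CPM and no opposite-strand partner, those most like the 9-gene sum were Gm7444, a processed pseudogene, Chl1, a cell adhesion gene, Fam71e2, Spesp1, which encodes a protein of the sperm equatorial segment, and Ankrd36. Their mean absolute differences from the sum over the 24 libraries were 0.23, 0.31, 0.32, 0.33 and 0.33 on the log2 scale, and the median over all genes compared was 1.79. Chl1 ranged from 0 to 9.37 CPM in Control and from 0.594 to 60.3 CPM in PNx. Spesp1 reached 6.03 CPM in Control, 12.2 in NaKtide, 31.3 in PNx and 11.4 in PNx+NaKtide, and each group held a library at 0. These 5 genes were picked by their likeness to the sum in the same 24 libraries, so nothing is read from their levels by group.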

How the data were processed

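RNA sequencing was carried out on visceral adipose tissue of 24 mice, 6 per group by the labels, each sample being a separate mouse. Per the submitters' processing notes and the methods, the authors trimmed 50-base reads with Trimmomatic 0.38, aligned them to GRCm38 with HISAT2 2.1.0, counted reads per gene with GenomicAlignments and normalised with DESeq2 1.20.0. The authors deposited raw counts per gene, normalised counts (here called signal, the counts divided by size factors of 0.292 to 1.77) and FPKM values. The counts were used for all tests, and the deposited FPKM for an alternative of the summed level. The annotation release and the strand setting of the counting are not given in the sources used here.

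Totals were 679250 to 2979505 counts per library. Genes with more than 10 counts over the 24 libraries (26116 of 54232) were fitted with edgeR 4.0.16 (TMM, robust quasi-likelihood, 4 group means, R 4.3.3, limma 3.58.1) and called at a Benjamini-Hochberg adjusted p under 0.1. Each SE was obtained from the log2 fold change and the F statistic (their ratio with F under a square root). Summaries used Python 3.11.15, numpy 2.4.6, pandas 2.3.3 and scipy 1.17.1. In a simulation of PNx against Control (24941 genes, 200 changed), 32% of 4-fold and 67% of 8-fold changes were recovered and 6.60% of calls were false. The changed genes were drawn only from those above a minimum expected count per library. The recovery therefore does not cover rarer genes such as Dazl and Spo11. Exon overlaps came from a GRCm38 annotation that matched 54165 gene identifiers (99.9%). Counts of any pair of replicates differed by more than sampling noise (lowest chi-square per degree of freedom 1.57).

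The 10 genes and all lists were chosen with earlier results of these data known. The text names the 10 genes, the 2 most counted genes of each pathway list, all somatic relatives, the first 2 markers of each cell type list, opposite-strand partners and the 5 genes most like the 9-gene sum, and any other gene was named after its values were seen. Alternatives were DESeq2 1.42.0, other scalings and filters, an adjusted p under 0.05, the compared groups alone, the replicate block, and libraries left out. Leaving out PNx replicates 1, 2 and 3 together, or both replicates 6, was chosen after seeing the data. All sums and folds of the pathway and cell type lists are on TMM scaling.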

Additional observations from a re-analysis of the deposited data

Results flagged for a closer look

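Groups of 6 libraries were checked with Dixon's ratio, in 48 checks. In 5 of them the gap between the highest library and its neighbour exceeded the 95% critical value. How often chance gives such a gap in skewed levels with zeros was not tested, so nothing is read from the number of gaps. Sycp3 was at 412 CPM in PNx replicate 6 (1091 counts). Ddx4 and Piwil1 were at 8.38 CPM (12 counts) and 17.5 CPM (25 counts) in NaKtide replicate 3, the library highest in its group for the 9-gene sum. Dazl was at 1.34 CPM in Control replicate 6, which rests on 2 counts. The sum of all 10 genes was 663 CPM in NaKtide replicate 6, of which Sycp3 supplied 652 CPM.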

How the results depend on the processing

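The direction of the median over those of the 10 genes that were tested in PNx against Control held under every scaling, filter and tool tried. It turned when PNx replicates 1, 2 and 3 were left out (-0.77). So did PNx+NaKtide against PNx (1.22) and the interaction (1.28). The cause was not tested. Genes called in PNx against Control (20) became 0 at an adjusted p under 0.05, 0 with the compared groups only, 0 without PNx replicates 1, 2 and 3, 1 without a filter, 1 with the replicate block, 2159 with filterByExpr, 4102 with library totals, 5575 without both replicates 6, 7764 with DESeq2 and 8696 with DESeq2 size factors. Of the 10 meiotic genes, 0 became 1 with library totals (15.7% of all genes) and 2 without both replicates 6 (21.8%). The count was 7 with DESeq2 (29.7%) and 7 with DESeq2 size factors (33.3%). With filterByExpr 7 of the 10 were tested and 2 were called (17.9%). Nothing is read from these counts, since the contrast entered the choice. DESeq2 called 1514 genes (5.8%) and 1 of the 10 in PNx+NaKtide against PNx. It called 3 genes (0.0115%) in NaKtide against Control and 2 genes (0.00766%) in PNx+NaKtide against NaKtide. In the interaction it called 94 genes (0.36%) and 1 of the 10 (Sycp3). It gave no adjusted p for 2 of the 10 in PNx+NaKtide against PNx and for 1 of the 10 in the interaction. The ratio of the summed level per kb, PNx over Control, was 2.17, 3.32 without Sycp3, and 0.542 without Sycp3 and PNx replicates 1, 2 and 3.

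With single libraries left out, genes called ranged from 0 to 8645 in PNx against Control. They were 8645, 6031 and 3815 with PNx replicate 4, 5 or 6 left out. They were 129 and 168 without Control replicates 5 and 6, and 106 without NaKtide replicate 6. Of the 10 meiotic genes 0 to 7 were called, the 7 being without PNx replicate 4, where 33.2% of all genes were called. Medians over the 10 genes ranged from 1.27 to 2.25 in that contrast, -1.92 to -1.06 in PNx+NaKtide against PNx, -0.53 to 0.41 in NaKtide against Control, -0.14 to 1.26 in PNx+NaKtide against NaKtide and -2.06 to -0.94 in the interaction. Genes called ranged from 0 to 1 in the interaction and stayed at 0 in the other contrasts. Of 36 pairs of same-numbered libraries, 19 had a correlation over 0.1 (-0.592 to 0.712). Libraries with different numbers were not compared, so these values cannot show whether replicate numbers pair samples, and the main fit did not use the numbers. With the replicate block the interaction called 2 genes, and medians were 1.10 in PNx against Control, -1.05 in PNx+NaKtide against PNx, -0.93 in NaKtide against Control, 0.77 in PNx+NaKtide against NaKtide and -0.15 in the interaction. Depth limits Dazl (32 counts) and Spo11 (106 counts), for which most libraries lay at 3 counts or fewer.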
